A study of Homo sapiens with 148 samples.

Results

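The step from definitive endoderm (DE) to primitive gut tube-like cells (PGT) was described from RNA-seq of H9 cells, an established human embryonic stem cell (hESC) line. The genes described are those with a mean level of at least 10 TPM (a read measure divided by transcript length and scaled to the same total in every sample) in DE, in PGT or in both. They numbered 10595 of the 49085 gene names in the table of mean TPM. Both groups were wild type (label WT) and were grown as rotating spheroids under the pancreatic differentiation treatment. DE cells, collected at day 4, had received activin A, at first together with CHIR99021 and Y27632. PGT cells, collected at day 7, had in addition been fed with medium containing KGF from day 4, the day on which DE was collected, and the medium with KGF, Sant1, RA, LDN193189, PdBU and Y27632 begins on the same day 7. The sources used here do not say whether the cells were collected before or after the change of medium on day 4 for DE or on day 7 for PGT. All cells come from the H9 line, so no other genetic background is represented. The series holds 148 samples, of which 12 are RNA-seq libraries, and 4 of these, 2 per stage, belong to this step.

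The authors' table gives the mean of the 2 replicates at each stage and nothing else. The spread between replicates therefore cannot be computed, no test was made, and every level below is the authors' mean without an error. Read counts per value are likewise unknown, so no interval or detection floor is given. Differences are log2((PGT TPM + 1)/(DE TPM + 1)), which understates the difference of genes with low levels, and a gene is called higher or lower in PGT from 2-fold on that scale. A gene listed at 0 in either stage is given by its levels only, with no fold.

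Definitive endoderm is the germ layer that gives rise to the lining of the gut and to the liver, lungs and pancreas. In the embryo it arises from the primitive streak under Nodal signalling, which activin A imitates in culture, and its cells carry transcription factors such as SOX17, FOXA2 and GATA6. Folding of this sheet forms the gut tube, in whose foregut part regulators such as HNF4A are active. The extraembryonic endoderm of the yolk sac and the fetal liver secrete many of the same plasma proteins and lipoproteins, among them transthyretin (TTR) and apolipoprotein A-I (APOA1).

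Of the 10595 genes, 8721 were at 10 TPM or more at both stages, 1201 in DE alone and 673 in PGT alone. The median log2 ratio was -0.14, with quartiles at -0.48 and 0.17. At least 2-fold higher levels in PGT were found for 520 genes (4.91%), and at least 2-fold lower levels for 1003 genes (9.47%). These shares are the background against which the counts of each gene group below should be read. In every group, genes that reached 10 TPM in DE alone or in PGT alone had their direction largely fixed by the limit. At 4-fold the counts were 195 and 316, and at 16-fold 40 and 52. When the TPM totals were recomputed without the 100 most abundant genes, the counts at 2-fold were 963 and 1217, so the share of higher genes among those past 2-fold was 44.2% in place of 34.1%. Rescaling the stages by their median ratio over the 8721 genes, 0.919, moved the median log2 ratio of all genes to -0.0186, and the settings named below as rescaled are of this kind. Without the 100 most abundant genes more genes pass the limit of 10 TPM, because every remaining level is scaled up. Small structural RNAs (RN7SK, RN7SL, RMRP, RPPH1 and Metazoa_SRP) took 34.0% of the TPM total in DE and 38.8% in PGT, and all other levels depend on these shares. The limit itself cuts through a continuum: HHAT was just inside at 10.00 TPM in DE and 8.62 in PGT, and LAD1 just outside at 9.998 and 9.28 TPM. The threshold does too, since 225 genes lay within 0.05 of 2-fold on the log2 scale.

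**Figure D1:**
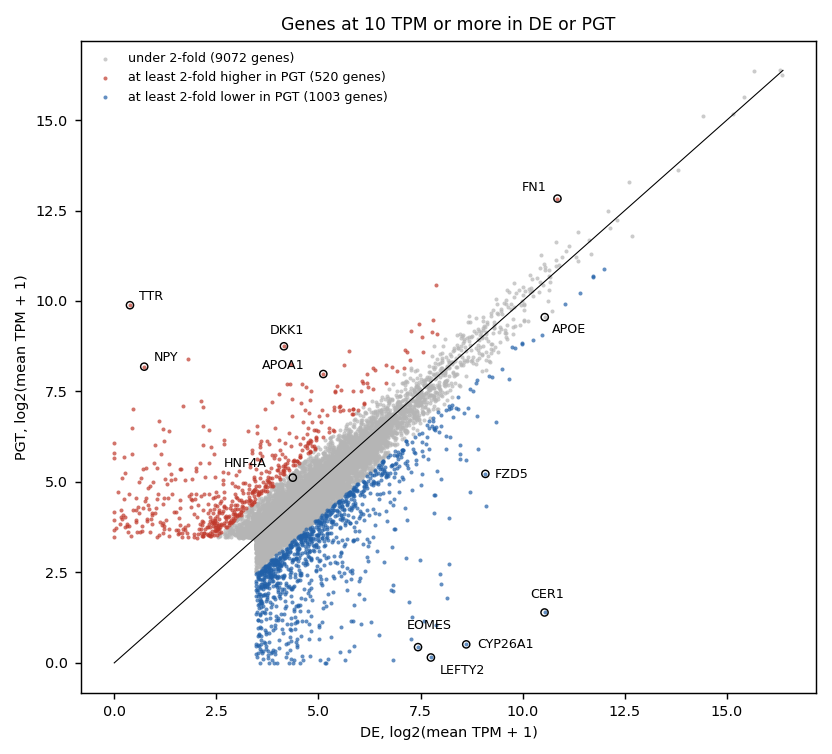
Mean level of each of the 10595 genes in DE (x axis) and PGT (y axis), both as log2(TPM + 1); red and blue points are the 520 and 1003 genes at least 2-fold higher or lower in PGT, grey points the 9072 genes under 2-fold, and the line marks equal levels. TTR and NPY lie near 0 on the DE axis and high on the PGT axis, while CER1, CYP26A1, LEFTY2 and EOMES lie at the opposite corner.

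The label PGT was checked against TTR, APOA1 and HNF4A. TTR (ENSG00000118271.12, chr18:31557009-31598833, forward strand, GRCh38), which encodes the thyroxine and retinol-binding protein carrier transthyretin, was at 0.306 TPM in DE and 943 in PGT, a log2 ratio of 9.50. APOA1 (ENSG00000118137.10, chr11:116835751-116837622, reverse strand), the main protein of high-density lipoprotein, was at 33.7 TPM in DE and 252 in PGT, a log2 ratio of 2.86. Its PGT level was the highest of the 6 stages. HNF4A (ENSG00000101076.20, chr20:44355699-44432845, forward strand), a nuclear receptor that regulates liver and gut genes, was at 19.7 and 33.7 TPM, giving a log2 ratio of 0.75 that is under 2-fold. All 3 markers were thus present in PGT, but HNF4A and APOA1 were already above 10 TPM in DE. In bulk RNA, a larger share of cells with a gene on and more of its RNA per cell cannot be told apart.

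The markers of DE stood the other way round. CER1 (ENSG00000147869.5, chr9:14719724-14722733, reverse strand), a secreted inhibitor of Nodal, BMP and WNT ligands, was at 1483 TPM in DE and 1.63 in PGT, a log2 ratio of -9.14 and the lowest of all named genes. EOMES, the T-box factor that specifies endoderm, was at 172 and 0.353 TPM. SOX17, an endoderm factor of the SOX family, was at 96.1 and 5.88 TPM, and CXCR4, a chemokine receptor used to sort endoderm cells, at 350 and 63.7 TPM. CXCR4 kept the highest PGT level of these. GSC, a homeobox gene of the anterior streak, was at 34.6 TPM in DE and listed at 0 in PGT.

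Genes for plasma proteins, which liver and yolk sac secrete into the circulation, formed the group with the highest median among the 31 lists. All 36 genes of the list were in the table, and 17 reached 10 TPM. Of these 17, 15 were at least 2-fold higher in PGT, none was lower, and the median log2 ratio was 3.95, against -0.14 over all genes. However, 14 of the 17 reached the limit through PGT alone, so that their direction was largely fixed by the limit. Besides TTR, the fibrinogen chains came from low levels in DE. FGB was listed at 0 in DE and was at 67.1 TPM in PGT, FGG was listed at 0 and at 14.4 TPM, and FGA was at 3.99 and 84.8 TPM. SERPINA1, which encodes alpha-1-antitrypsin, was listed at 0 in DE and reached 49.7 TPM in PGT. AFP, the fetal counterpart of albumin, was at 0.178 and 22.2 TPM, giving a log2 ratio of 4.30. VTN (vitronectin, an adhesive plasma protein) had the highest PGT level after TTR, at 133 TPM against 3.54 in DE, and ORM1 (orosomucoid, an acute phase protein) was at 69.7 against 1.34 TPM. The clotting factor genes F2, F10 and F7 were at 40.9, 41.9 and 12.8 TPM in PGT against 0.719, 15.3 and 4.32 TPM in DE. The carriers and protease inhibitors HPX, SERPINF2, AMBP and ITIH4 had log2 ratios between 1.18 and 3.47. The complement gene C5 (79.6 and 114 TPM) and SERPINF1 (49.6 and 28.9 TPM) were under 2-fold. The other 19 genes stayed under 10 TPM, and 11 of them were under 1 TPM at both stages. Among these 19 were ALB, the albumin gene, at 0.364 TPM in DE and 2.99 in PGT, and AHSG, listed at 0 in DE and at 3.81 TPM in PGT. C3 and GC stood the other way, with 8.82 and 3.69 TPM in DE against 2.45 and 0.394 TPM in PGT.

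To show what lies upstream of genes of this group that were under 10 TPM in DE, the 250 bases before the transcript start of 4 of them are printed 5′ to 3′ on the gene's strand, from the RefSeq promoter table on GRCh38.p14. The table holds 2 windows each for FGB and SERPINA1. For FGB the window that adjoins the annotated gene start is shown, and for SERPINA1 the only window with a match. The 4 genes and these windows were chosen after the matches were seen, and all 4 hold the HNF1 letters GTTAAT. These letters are only part of a full HNF1 site, and full sites were not searched. FGG, which was listed at 0 in DE, does not hold the HNF1 letters and is not printed. Capitals mark exact matches, on either strand, to GTTAAT and to the FOXA letters TGTTTGC.
FGB, chr4:154562761-154563010, forward strand: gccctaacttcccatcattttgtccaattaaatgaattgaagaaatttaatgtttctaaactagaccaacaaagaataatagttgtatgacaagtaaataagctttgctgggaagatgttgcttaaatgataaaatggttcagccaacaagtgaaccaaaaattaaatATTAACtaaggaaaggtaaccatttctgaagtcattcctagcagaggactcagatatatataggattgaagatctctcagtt
FGA, chr4:154590743-154590992, reverse strand: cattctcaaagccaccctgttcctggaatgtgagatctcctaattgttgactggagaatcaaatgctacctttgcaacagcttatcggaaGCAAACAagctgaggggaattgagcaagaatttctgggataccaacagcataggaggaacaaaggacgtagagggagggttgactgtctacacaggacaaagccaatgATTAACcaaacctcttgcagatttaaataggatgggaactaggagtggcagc
SERPINA1, chr14:94388603-94388852, reverse strand: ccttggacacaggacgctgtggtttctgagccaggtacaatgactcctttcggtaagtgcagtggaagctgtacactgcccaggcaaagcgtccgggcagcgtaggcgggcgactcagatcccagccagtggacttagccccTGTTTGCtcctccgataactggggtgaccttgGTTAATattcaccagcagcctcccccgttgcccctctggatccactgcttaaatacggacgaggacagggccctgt
AFP, chr4:73435971-73436220, forward strand: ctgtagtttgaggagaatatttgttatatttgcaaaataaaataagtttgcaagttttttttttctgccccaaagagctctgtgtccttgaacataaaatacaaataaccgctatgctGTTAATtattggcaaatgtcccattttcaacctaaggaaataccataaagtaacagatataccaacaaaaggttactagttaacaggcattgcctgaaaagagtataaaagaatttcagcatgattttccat
The windows of FGB, FGA, SERPINA1 and AFP hold the HNF1 letters at 82, 52, 76 and 132 bases before the start. FGA and SERPINA1 also hold the FOXA letters, at 160 and 108 bases before the start. Over the list, 14 of the 17 genes at 10 TPM had a promoter entry. In any of their windows, 6 of the 14 held the HNF1 letters (AFP, SERPINA1, FGA, FGB, F2 and C5), against 7.50% of all 27305 genes with a promoter. The FOXA letters TGTTTGC were found in 5 of the 14, against 3.97% of all, but the other FOXA letters, TGTTTAC, in 0 of the 14. The GATA letters AGATAA were in 4 of the 14, against 11.1% of all. Among the 8 lipoprotein genes at 10 TPM described below, 5 had a promoter entry, and 0 of the 5 held the HNF1 letters or TGTTTGC. The letters TGTTTAC were in 1 of the 5 (APOA2) and AGATAA in 1 (MTTP). By direction, TGTTTGC was in 6.96% of higher and 5.16% of lower genes at 2-fold. At 4-fold it was in 5.63% and 6.21%, and over all described genes with a promoter in 3.31%. Among genes at least 2-fold higher in PGT, 38 of 388 with a promoter held the HNF1 letters (9.79%), and among those lower, 43 of 640 (6.72%). Over all described genes with a promoter the share was 5.06% (410 of 8107), which is below both. At 4-fold the shares were 15.5% (22 of 142) and 7.91% (14 of 177). For the GATA letters AGATAA the shares at 4-fold were 15.5% and 14.7%, against 11.1% of all promoters and 6.85% of those of the described genes. Among the 15 highest named genes, 13 had a promoter and 5 of these held the HNF1 letters, and among the 15 lowest, 1 of 7 did. The HNF4 letters CAAAGTCCA were in none of the 13 and in 0.403% of all promoters, and the FOXA letters TGTTTAC in none of the 13 and in 3.66%. TGTTTGC was in 1 of the 13 and AGATAA in 2 of the 13. TTR and APOA1 had no entry. A match is only a run of letters, and these shares come with no test.

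Genes of lipoprotein assembly also had higher levels in PGT, but not all of them. Of 18 listed genes, 8 reached 10 TPM, 5 were higher, 1 was lower and the median log2 ratio was 2.21. The limit was reached through PGT alone by 2 of the 8. MTTP, which loads lipid onto apolipoprotein B, was at 0.351 TPM in DE and 53.4 in PGT (log2 ratio 5.33). APOB itself was at 13.7 and 147 TPM (3.34), APOM at 3.69 and 33.9 TPM (2.90), and APOA2 at 72.0 and 212 TPM (1.55). The neighbouring genes APOE and APOC1 stood the other way: APOC1 was lower, at 376 TPM in DE and 119 in PGT (-1.65), and APOE was at 1488 and 750 TPM, a ratio of -0.99 just under 2-fold. Because APOE was so abundant in DE, the summed level of the 18 genes was lower in PGT, at 1607 against 2012 TPM. The receptor gene SCARB1 was under 2-fold (0.30). Of the 10 genes under the limit, APOC3 was listed at 0 in DE and at 4.73 TPM in PGT, and APOA4 was at 0.200 and 3.04 TPM.

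The brush border is the microvillar surface of absorptive epithelium in gut, yolk sac and kidney. Of 24 such genes, 11 reached 10 TPM, of which 6 were higher in PGT, 1 was lower and the median log2 ratio was 2.27. VIL1, which bundles the actin of microvilli, was at 24.6 TPM in DE and 125 in PGT (2.30). The endocytic receptors CUBN and LRP2 were at 11.4 and 29.8 TPM in PGT against 0.596 and 5.38 TPM in DE. The surface peptidase DPP4 was at 22.6 against 0.728 TPM, the zinc transporter SLC39A5 at 32.0 against 1.62 TPM, and the galectin LGALS2 at 12.1 against 1.54 TPM. SLC40A1, the iron exporter ferroportin, was the member that was lower (67.8 and 28.1 TPM, -1.24). However, 5 of the 11 reached the limit through PGT alone, so that their direction was largely fixed by it. Of the genes of the mature intestine, CDH17 was at 0.0271 and 0.0172 TPM and FABP2 at 0.0392 TPM in DE and listed at 0 in PGT. FABP1 was listed at 0 in DE but at 8.18 TPM in PGT.

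**Figure D2:**
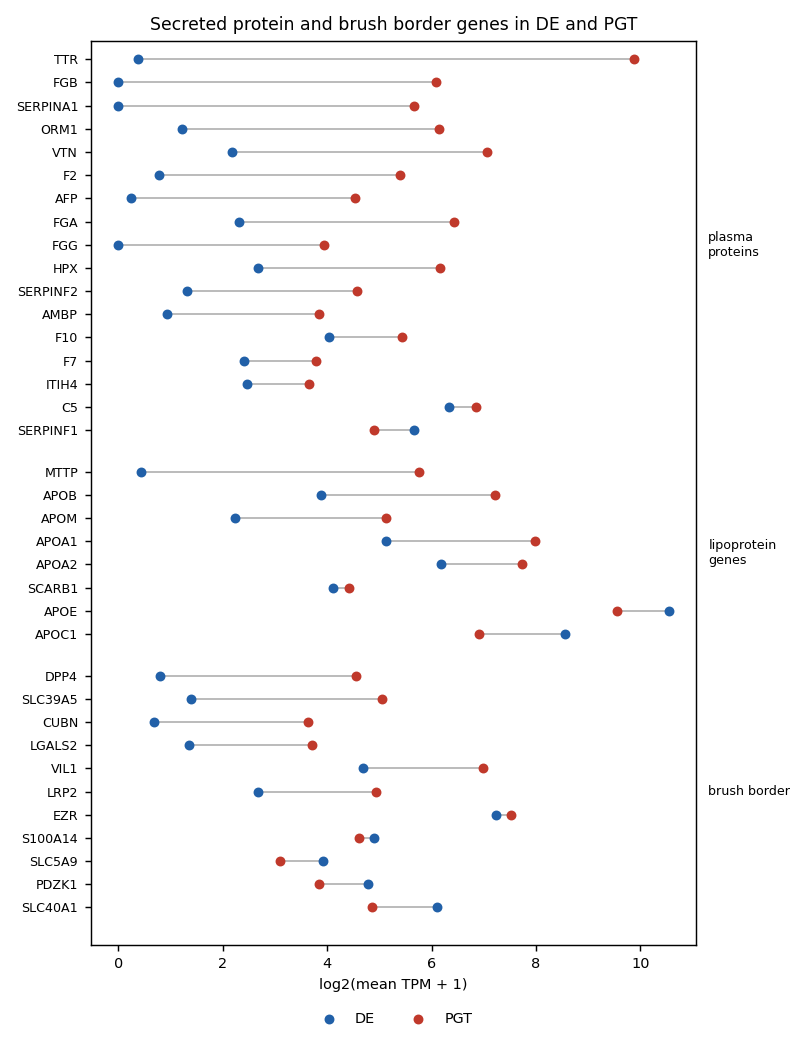
Levels of the plasma protein, lipoprotein and brush border genes at 10 TPM or more in DE (blue) or PGT (red), as log2(mean TPM + 1), each pair joined by a line and each group ordered by its ratio; points at 0 are genes listed at 0. Nearly all plasma protein genes lie to the right in PGT, from TTR (0.306 to 943 TPM) to ITIH4, whereas APOE, APOC1 and SLC40A1 lie to the left.

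The pluripotency network was still partly present in DE. Of its 20 genes, 9 reached 10 TPM, 6 were lower in PGT and none was higher, with a median log2 ratio of -1.36. POU5F1 (OCT4, the central factor of the network) was at 417 TPM in DE and 25.4 in PGT, a log2 ratio of -3.99. SOX2, its partner, was at 22.4 and 1.70 TPM, and L1TD1, an RNA-binding protein of hESCs, at 237 and 38.1 TPM. The DNA methyltransferase gene DNMT3B was at 186 and 51.7 TPM, SALL4 at 225 and 87.1 TPM and DPPA4 at 126 and 53.8 TPM. The oncofetal RNA-binding proteins LIN28A (772 and 516 TPM) and LIN28B (64.2 and 52.7 TPM) were under 2-fold. ZFP42, a zinc finger gene known from naive and primed stem cells, was the only member above its DE level among these 9, at 58.5 and 105.7 TPM, a ratio of 0.84 that is under 2-fold. NANOG did not reach the limit, at 8.96 and 0.293 TPM.

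The MIR302 cluster, which encodes microRNAs characteristic of hESCs, followed the same course. Its 5 hairpins lie within chr4:112647874-112648557 on the reverse strand. Their entries measure fragments of the hairpin or its host transcript in a library made from total RNA and not the mature microRNA. The mature 3p strands from RefSeq (GRCh38.p14) are printed with the seed, bases 2 to 8, in capitals, because 4 of the 5 share it.
hsa-miR-302a-3p, chr4:112648186-112648208: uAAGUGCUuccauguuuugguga
hsa-miR-302b-3p, chr4:112648489-112648511: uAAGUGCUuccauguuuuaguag
hsa-miR-302c-3p, chr4:112648366-112648388: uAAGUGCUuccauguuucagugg
hsa-miR-302d-3p, chr4:112648006-112648028: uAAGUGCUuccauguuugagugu
hsa-miR-367-3p, chr4:112647877-112647898: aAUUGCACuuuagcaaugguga
The 4 members with the seed AAGUGCU were at 112.5 (MIR302A), 39.7 (MIR302B), 141 (MIR302C) and 57.7 TPM (MIR302D) in DE. In PGT they were at 3.47, 2.87, 6.49 and 2.00 TPM. MIR367, with the different seed AUUGCAC, was at 38.6 and 2.14 TPM. The log2 ratios of the 5 ranged from -4.67 to -3.39. In hESCs the 5 levels lay between 38.5 and 145 TPM, close to those in DE, so the lower level appeared at the PGT stage.

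Transcription factors of the primitive streak and mesendoderm had the lowest median among the lists with at least 5 genes. Of 12 genes, 7 reached 10 TPM, 6 were lower, none was higher, and the median log2 ratio was -3.21. Of the 7, 4 reached the limit through DE alone. Besides EOMES and GSC, the homeobox genes LHX1 (56.8 and 1.24 TPM), OTX2 (229 and 23.9 TPM) and MIXL1 (10.5 and 0.664 TPM) were lower. So was FOXH1, the DNA-binding partner of SMAD2 in Nodal signalling (57.8 and 12.6 TPM). The WNT-responsive SP5 (-0.24) was under 2-fold.

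The endoderm factors did not share a direction. Of 15 genes, 12 reached 10 TPM, with 4 higher, 3 lower and 5 under 2-fold. The limit was reached through PGT alone by 2 of the 12 and through DE alone by 2. FOXA1, a pioneer factor, was at 28.5 TPM in DE and 86.0 in PGT (1.56), whereas its relatives FOXA2 (39.6 and 48.7 TPM) and FOXA3 (37.0 and 26.9 TPM) were under 2-fold. HHEX, a homeobox gene of the anterior endoderm and early liver, was at 45.0 and 137 TPM (1.59). NR2F2, an orphan nuclear receptor, was at 0.378 and 17.7 TPM, and TFAP2A at 0.755 and 14.2 TPM. TFAP2A and GATA3 are not particular to endoderm and are also counted among the trophoblast and amnion markers below. GATA4 and GATA6, zinc finger factors of endoderm and heart, had nearly the same level, at 47.5 and 47.5 TPM in DE and 29.6 and 30.0 TPM in PGT, both under 2-fold. The lower ones were SOX17, PRDM1 (37.9 and 5.75 TPM) and GATA3 (23.7 and 10.5 TPM, a ratio of -1.11 that was -0.997 after rescaling the stages by their median ratio, just under 2-fold).

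Factors of the gut tube and its organs were mostly low. Of 34 genes, only 5 reached 10 TPM, with 4 higher and none lower (median 1.23). The limit was reached through PGT alone by 2 of the 5. TBX3, a T-box factor of the liver bud, was at 53.1 and 126 TPM, ISL1, a LIM-homeodomain factor of foregut mesoderm and endocrine cells, at 9.36 and 58.3 TPM, GRHL2, a regulator of epithelial identity, at 12.7 and 31.0 TPM, and ONECUT1 (HNF6) at 4.88 and 17.1 TPM. HNF4A was under 2-fold. Of the 29 genes under the limit, 13 were under 1 TPM at both stages. PROX1 and CEBPA, factors of hepatocytes, came near the limit in PGT with 9.09 and 9.81 TPM, against 0.624 and 1.52 TPM in DE. PDX1, which marks the pancreas, was listed at 0 in DE and at 0.243 TPM in PGT, and CDX2, which marks the hindgut, listed at 0 and at 1.38 TPM. None of the 36 HOX genes reached 10 TPM, and the highest HOX level at either stage was 4.24 TPM, that of HOXB2 in PGT.

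**Figure D3:**
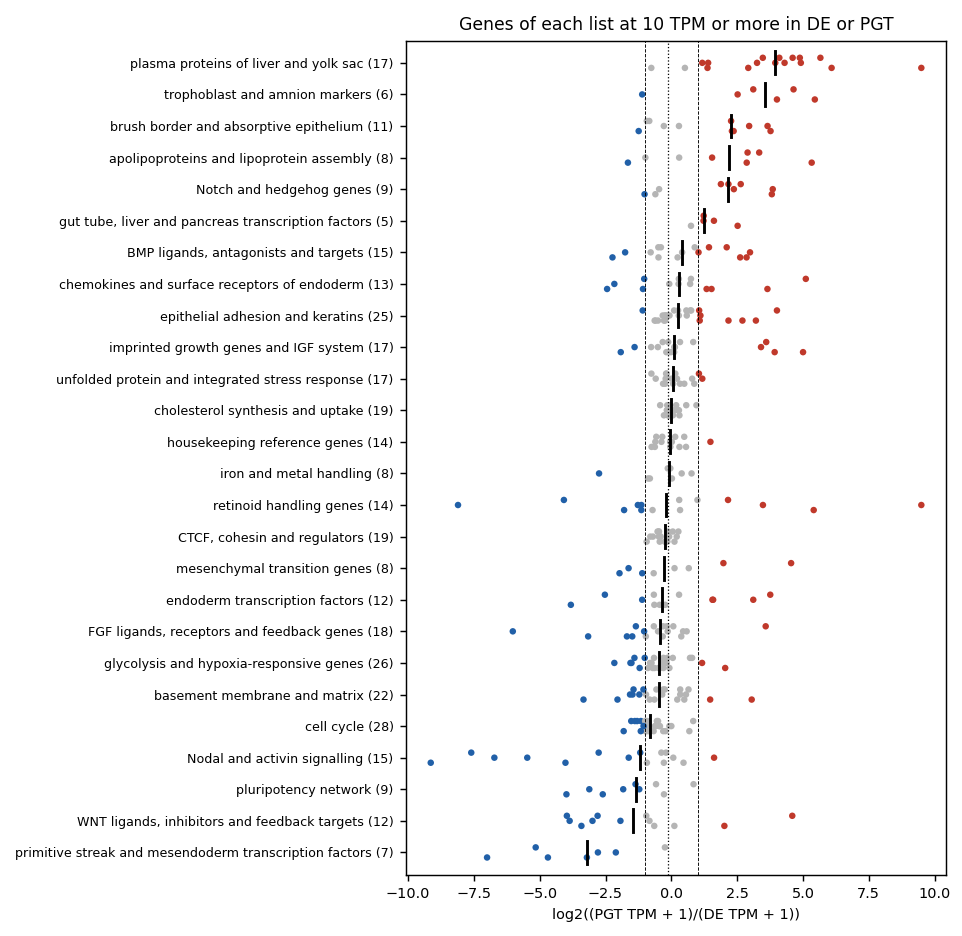
Log2((PGT TPM + 1)/(DE TPM + 1)) for each list, over its genes at 10 TPM or above (numbers in brackets); black bars are list medians, dashed lines mark 2-fold, the dotted line the median of all 10595 genes, -0.14, and red and blue points genes past 2-fold. Medians run from -3.21 for primitive streak factors to 3.95 for plasma proteins, while cholesterol, housekeeping and CTCF or cohesin genes lie close to the dotted line.

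Nodal and activin signalling passes from a ligand and its co-receptor TDGF1 through type I and II receptors to SMAD2, SMAD3 and SMAD4, and induces its own inhibitors LEFTY1, LEFTY2 and CER1. The ligand, the co-receptor and the inhibitors were at far lower levels in PGT. Of 20 genes, 15 reached 10 TPM, 8 were lower and 1 was higher (median -1.18), and 6 of the 15 reached the limit through DE alone. NODAL was at 31.3 TPM in DE and 0.988 in PGT, its relative GDF3 at 11.8 and 0.890 TPM, and TDGF1 at 293 and 5.61 TPM. LEFTY2 was at 215 and 0.109 TPM and LEFTY1 at 111.5 and 0.0641 TPM, with log2 ratios of -7.60 and -6.72. The activin-binding protein FST (51.7 and 16.2 TPM) and the SMAD repressor SKIL (120 and 52.5 TPM) were also lower. The receptors and SMADs did not follow: ACVR2A, ACVR2B and ACVR1B had ratios of 0.07, -0.20 and -0.28, SMAD4 -0.38 and SMAD2 -0.93, while SMAD3 was higher in PGT, at 5.46 and 18.9 TPM (1.62). The summed level of the 20 genes was 2625 TPM in DE and 353 in PGT.

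Among WNT genes, 12 of 25 reached 10 TPM, 6 were lower and 2 were higher (median -1.44), and 5 of the 12 reached the limit through DE alone. The median depended on the totals. Without structural and mitochondrial RNAs it was -0.89 over 15 genes, and without the 100 most abundant genes -0.13 over 20. The lower ones of this list were receptors and secreted inhibitors. WNT ligands and receptors outside the list, some of them at least 2-fold higher in PGT, are not counted here. FZD5, a WNT receptor, was at 543 and 36.3 TPM (-3.86), FZD8 at 66.8 and 8.71 TPM, SFRP1 at 476 and 58.8 TPM (-3.00), FRZB at 50.3 and 3.80 TPM, SFRP2 at 21.2 and 0.416 TPM and the WNT deacylase NOTUM at 11.1 and 2.16 TPM. DKK1, an inhibitor that binds the LRP5 and LRP6 co-receptors, stood apart from the other secreted inhibitors, at 16.8 TPM in DE and 429 in PGT (4.59), the highest of the 6 stages. The receptor-degrading ligase RNF43 was at 2.2 and 11.9 TPM. The feedback targets AXIN2 (-0.65), TCF7 (-0.83) and LGR5 (-0.95) were under 2-fold.

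FGF genes were mostly under 2-fold between the stages. KGF, an FGF ligand, was in the medium from day 4. Of 23 genes, 18 reached 10 TPM, 6 were lower and 1 was higher (median -0.42). The receptors had ratios near 0, with FGFR2, the receptor whose epithelial isoform binds KGF, at 53.0 and 72.6 TPM (0.45), FGFR1 at -0.33, FGFR3 at 0.07 and FGFR4 at 0.38. The streak ligands FGF17 (156 and 1.42 TPM, -6.02) and FGF8 (20.4 and 1.39 TPM, -3.16) were lower, and FGF10, which binds the same FGFR2 isoform as KGF, was higher (0.625 and 18.5 TPM, 3.58). Feedback and target genes of the pathway were lower or under 2-fold: ETV4 (-1.69), SPRY4 (-1.48) and IL17RD (-1.35) were past it, ETV5 (-1.03) was past it but at -0.92 after median-ratio rescaling, and DUSP6 (-0.67) and SPRY2 (-0.18) were not.

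Several BMP targets, but not all, were at least 2-fold higher in PGT, while none of the ligands at 10 TPM was higher by 2-fold. Of 22 genes, 15 reached 10 TPM, 6 were higher and 2 lower (median 0.41), and 3 of the 15 reached the limit through PGT alone. The inhibitors of DNA binding ID2 (48.4 and 302 TPM, 2.61), ID4 (45.0 and 123 TPM, 1.43) and ID3 (188 and 386 TPM, 1.03), the homeobox targets MSX1 (0.541 and 11.2 TPM) and MSX2 (8.98 and 41.9 TPM) and the pseudoreceptor BAMBI (53.0 and 390 TPM, 2.86) were higher. ID1 was at 412 and 764 TPM, a ratio of 0.89 that is under 2-fold. Among ligands, BMP2 was lower (82.6 and 16.7 TPM, -2.24), and BMP4 (8.30 and 11.4 TPM) and BMP7 (31.4 and 22.0 TPM) were under 2-fold. The antagonist BMPER was lower as well (45.0 and 12.6 TPM).

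Of 19 hedgehog and Notch genes, 9 reached 10 TPM, 6 were higher, 1 was lower and 2 were under 2-fold (median 2.17). Of the 9, 4 reached the limit through PGT alone. The gut epithelial ligands SHH and IHH were at 32.6 and 63.7 TPM in PGT against 1.38 and 3.48 TPM in DE, with log2 ratios of 3.82 and 3.85. PTCH1, their receptor and target, was at 40.0 against 10.1 TPM (1.88). Of the Notch genes, the ligand DLL1 was at 2.69 and 21.9 TPM, and the targets HES1 and HEY1 at 12.4 and 68.7 TPM and at 1.53 and 10.4 TPM. The receptor NOTCH3 (-0.47) and the ligand JAG1 (-0.61) were under 2-fold, and NOTCH2 was at 60.9 and 29.6 TPM, a ratio of -1.02 that was -0.90 after median-ratio rescaling.

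**Figure D4:**
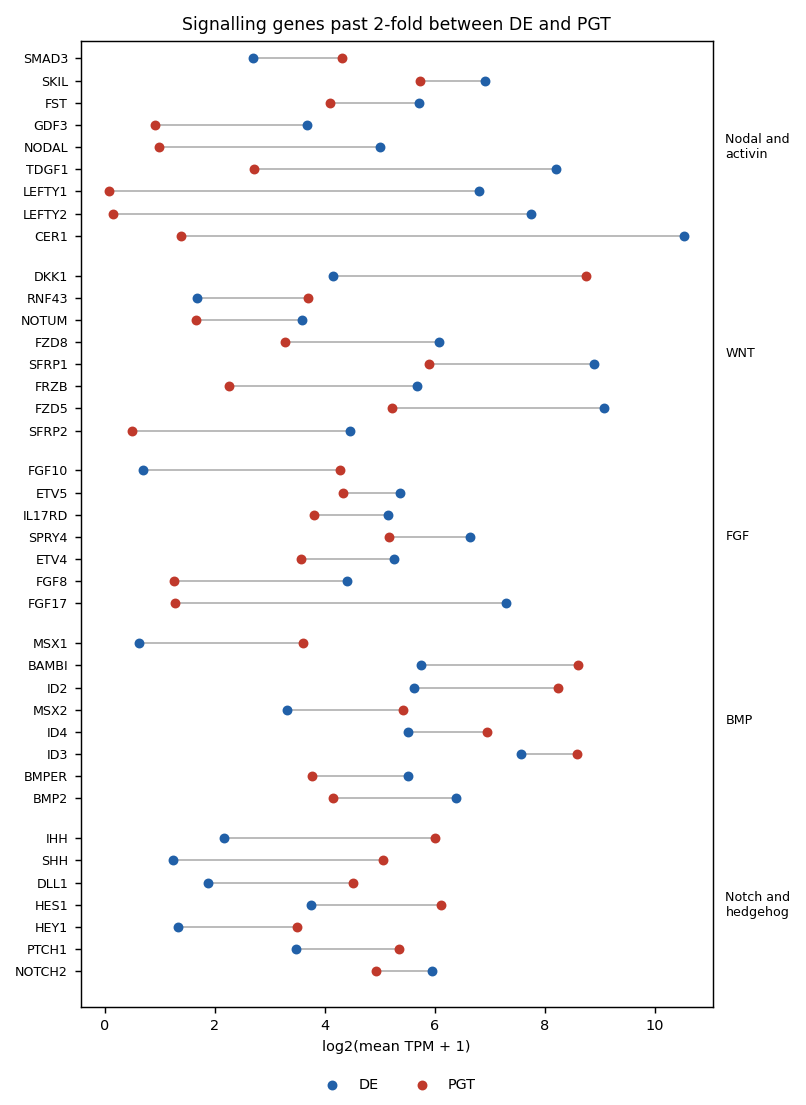
Levels in DE (blue) and PGT (red), as log2(mean TPM + 1), of the listed Nodal, WNT, FGF, BMP, Notch and hedgehog genes past 2-fold. In the Nodal group 8 of 9 genes lie lower in PGT, in the Notch and hedgehog group 6 of 7 lie higher, and in the WNT group DKK1 (16.8 to 429 TPM) runs against the other secreted inhibitors.

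Retinoic acid is made from retinol by aldehyde dehydrogenases and broken down by CYP26 enzymes. ALDH1A1, which makes retinoic acid, was at 2.23 TPM in DE and 136 in PGT (5.41), and CYP26A1, which degrades it, at 391.8 and 0.426 TPM (-8.11). The other retinoic acid-making enzymes stayed under 10 TPM, with ALDH1A3 at 4.45 and 0.261 TPM and ALDH1A2 under 1 TPM at both stages. The retinol carrier RBP4 (1.07 and 22.0 TPM) and the retinal reductase DHRS3 (9.05 and 43.7 TPM) were higher. The intracellular carriers CRABP1 (62.9 and 2.77 TPM) and CRABP2 (279 and 126 TPM), the retinol esterifying LRAT (-1.79), the retinol uptake receptor STRA6 (11.9 and 4.86 TPM) and the receptor RARG (17.0 and 6.44 TPM) were lower. Of the 14 genes at 10 TPM, out of 20, 4 were higher and 6 lower (median -0.21), where TTR is counted here as well as among plasma proteins. Of the 14, 4 reached the limit through PGT alone and 5 through DE alone. The other receptors had ratios of 0.30 (RARA), -0.71 (RARB) and 0.99 (RXRA).

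Epithelial genes were present at both stages. Of 26, 25 reached 10 TPM, 7 were higher, 1 was lower and 17 were under 2-fold (median 0.26). The limit was reached through PGT alone by 3 of the 25. The tight junction genes CGN (27.0 and 181 TPM) and CLDN4 (3.98 and 45.2 TPM) and the keratin gene KRT7 (0.777 and 27.7 TPM) had the largest ratios. E-cadherin (CDH1) was at 68.4 and 145 TPM (1.08) and desmoplakin (DSP) at 137 and 285 TPM (1.06). The simple epithelial keratins KRT8 (-0.28) and KRT18 (-0.33) and EPCAM (-0.22) were under 2-fold. N-cadherin (CDH2) stood opposite to CDH1, at 462 and 214 TPM (-1.11, and -0.99 after median-ratio rescaling). Of 14 genes known from mesenchymal transition, CDH2 included, 8 reached 10 TPM, 2 were higher and 3 lower. Fibronectin (FN1) stood at 1846 and 7276 TPM (1.98), the highest PGT level of any nuclear gene annotated as protein-coding, and TGFB2 at 0.968 and 45.1 TPM. ITGA5, a subunit of the fibronectin receptor, was lower (126 and 31.3 TPM, -1.97), and vimentin (VIM) was at 48.0 and 52.3 TPM.

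Of the 22 matrix genes at 10 TPM out of 27, 7 were lower and 2 higher (median -0.46). The ubiquitous basement membrane chains COL4A1 (470 and 113 TPM, -2.05) and COL4A2 (246 and 82.4 TPM, -1.57), which assemble with each other, were lower, whereas COL4A5 (397 and 501 TPM) and COL4A6 (408 and 478 TPM), which also assemble with each other, were under 2-fold. The laminin chain LAMB1 was at 185 and 516 TPM (1.47), and its partners LAMA1 (-0.35) and LAMC1 (0.65) were under 2-fold. COL2A1, the cartilage and notochord collagen, was at 10.3 and 92.9 TPM, and COL5A2 at 85.9 and 7.60 TPM. Among receptors and guidance genes of endoderm, 13 of 22 reached the limit, 4 were higher and 4 lower. ROBO2, the receptor for SLIT ligands, was at 3.36 and 149 TPM (5.11) while ROBO1 was at 69.2 and 65.4 TPM. FLRT3 (137 and 397 TPM), the ephrin EFNB2 (1.45 and 29.8 TPM) and KITLG (14.8 and 39.0 TPM) were higher. The receptor for KITLG, KIT, was at 141 and 68.7 TPM (-1.03, and -0.91 after median-ratio rescaling), and the chemokine receptor ACKR3 was lower (74.9 and 15.9 TPM) beside CXCR4.

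Cell cycle genes were lower as a group without many passing 2-fold. Of 34 genes, 28 reached 10 TPM, 7 were lower, none was higher and the median log2 ratio was -0.83, or -0.67 over 29 genes after median-ratio rescaling. CCND2, a G1 cyclin, was at 146 and 41.0 TPM (-1.81), the checkpoint kinase BUB1 at 87.3 and 29.7 TPM, the replication helicase subunit MCM6 at 116 and 43.7 TPM and CCNA2 at 59.9 and 26.3 TPM. MCM2 was at 76.6 TPM at both stages and MKI67 at 22.9 and 19.5 TPM. Among genes of glycolysis and hypoxia, 26 of 31 reached the limit, 6 were lower and 2 were higher (median -0.45). The higher pair were the glucose transporters SLC2A1 (23.6 and 100 TPM) and SLC2A3 (240 and 539 TPM), and the lower ones included LDHA (134 and 57.7 TPM), PDK1 (11.7 and 3.32 TPM) and the prolyl hydroxylase EGLN3 (14.2 and 2.39 TPM). Cholesterol synthesis and uptake held nearly level, with all 19 genes under 2-fold and a median of -0.032, or 0.083 after median-ratio rescaling. LSS was at 31.0 and 60.9 TPM, a ratio of 0.95 that passed 2-fold at 1.07 after median-ratio rescaling.

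The CTCF and cohesin list and the housekeeping list showed little difference. None of the 19 genes of the CTCF and cohesin list passed 2-fold, and their median was -0.25. With a pseudocount of 0.1 TPM, ESCO2 passed it at -1.06. CTCF was at 52.8 and 46.3 TPM and the cohesin subunit RAD21 at 139 and 85.1 TPM (-0.70). Of 14 housekeeping genes at 10 TPM, only B2M passed, at 22.6 and 65.0 TPM (1.49), and the median was -0.04, or 0.08 after median-ratio rescaling. Of 17 stress response genes, XBP1 (56.5 and 129 TPM) and HERPUD1 (18.4 and 39.1 TPM) were higher and none was lower. In the iron and metal list, only SLC39A8 of 8 genes passed (71.6 and 9.82 TPM). The metal transporters SLC40A1 and SLC39A5, both past 2-fold, are counted with the brush border genes instead. Of 17 genes of the imprinted and IGF list, 4 were higher: H19 (1.01 and 63.4 TPM), DLK1 (18.7 and 208 TPM), IGFBP3 (19.1 and 304 TPM) and IGFBP5 (1.78 and 32.9 TPM). IGFBP4 and IGFBP6 were lower (-1.40 and -1.92).

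Markers of other cell types were measured in the same columns. Of 12 trophoblast and amnion markers, 6 reached 10 TPM and 5 were higher in PGT: HAND1, VTCN1, KRT7, TFAP2A and ISL1. All 5 reached the limit through PGT alone, and GATA3, the only marker of the list above it in DE, was lower in PGT. Their list summed to 38.2 TPM in DE and 199 in PGT. HAND1, a factor of trophoblast, amnion and lateral mesoderm, was at 0.174 and 50.4 TPM, and VTCN1 at 0.0646 and 25.6 TPM. The trophoblast markers CGA (0.0777 and 0.579 TPM), ELF5 (listed at 0 and 0.153 TPM) and XAGE2 (listed at 0 and 0.229 TPM) were near 0. Their levels say nothing about amnion. Of 10 cardiac markers, 3 reached the limit; HAND1 and ISL1 are 2 of them, and the atrial myosin light chain MYL7 was at 110 and 8.22 TPM. TNNT2 and TBX5, which define heart muscle and heart field, were at 2.04 and 0.0274 TPM in PGT. Of 11 mesenchymal markers, 3 reached 10 TPM, with 1 higher, 1 lower and 1 under 2-fold (median -0.64). The limit was reached through PGT alone by 1 of them and through DE alone by 2. The higher one, PDGFRA, was at 4.17 and 62.0 TPM. TWIST1, PRRX1 and FOXF1 were under 1 TPM at both stages, and the list summed to 34.4 and 89.1 TPM. The endothelial list summed to 201 TPM in DE and 5.39 in PGT, nearly all of it VWF (191 and 1.21 TPM), while PECAM1 and CDH5 were under 1 TPM at both stages. Of 12 neural markers, 3 reached 10 TPM, with 1 higher, 1 lower and 1 under 2-fold (median -0.97). TUBB3 was the higher one (55.1 and 116 TPM). SOX1 and PAX6 were at 0.0103 and 4.40 TPM in DE and listed at 0 and at 0.295 TPM in PGT. The neural list summed to 145 and 156 TPM. None of the 12 endocrine markers reached 10 TPM, and INS and GCG were listed at 0. The part of such cells in the differences between DE and PGT was not tested.

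The 15 highest ratios among genes without clone names joined these groups with genes outside them. NPY, a neuropeptide, was at 0.663 TPM in DE and 290 in PGT (7.45), GABRP, a subunit of GABA receptors, at 0.380 and 130 TPM (6.56), and HAPLN1, which links hyaluronan to proteoglycans, at 0.341 and 88.6 TPM (6.06). EPAS1 (HIF-2α, a hypoxia-regulated factor) was at 1.15 and 102 TPM (5.59), the hyaluronan-binding protease HABP2 at 1.31 and 87.4 TPM and the glutathione transferase GSTA2 at 1.55 and 83.6 TPM. TTR, FGB, SERPINA1, HAND1, ALDH1A1, MTTP, ROBO2 and H19 were also among the 15. In 11 of the 15 the PGT level was the highest of the 6 stages, and none of the 15 was at 10 TPM in hESCs. The other 4 (TTR, SERPINA1, ALDH1A1 and H19) were highest in SC-β organoids, where TTR was at 1229 TPM and H19 at 987 TPM, with 55.8 TPM and 790 TPM at the intervening pancreatic progenitor (PP) stage. NPY, in contrast, stood at 8.81 TPM in PP and at only 1.28 in SC-β organoids.

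Among the 15 lowest were the Nodal signalling genes CER1, LEFTY2, LEFTY1 and TDGF1, the streak factor EOMES, the FGF ligand FGF17 and the retinoic acid-degrading CYP26A1. The others were LINC00458 (234 and 1.07 TPM), LINC01356 (254 and 3.52 TPM), MAGEB17 (152 and 0.580 TPM), VWF, TRDN (87.7 and 0.705 TPM), SHISA3 (49.1 and 0.0554 TPM), the actin-binding TAGLN (251 and 4.50 TPM) and the cation channel TRPA1 (52.5 and 0.263 TPM). In 12 of the 15 the DE level was the highest of the 6 stages, and 11 were at 10 TPM or more in hESCs. LINC00458, LEFTY1 and TAGLN were highest in hESCs, at 1270, 168 and 277 TPM. TAGLN came back to 117 TPM in SC-β organoids. Over all genes at least 2-fold higher in PGT, 325 of 520 (62.5%) had their highest level of the 6 stages in PGT, and 97 (18.7%) in SC-β organoids. Of the 1003 lower ones, 671 (66.9%) were highest in DE and 165 (16.5%) in hESCs. Over all 10595 genes the shares highest in DE and in PGT were 28.0% and 15.5%, and since the calls rest on the same columns these shares are a description.

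**Figure D5:**
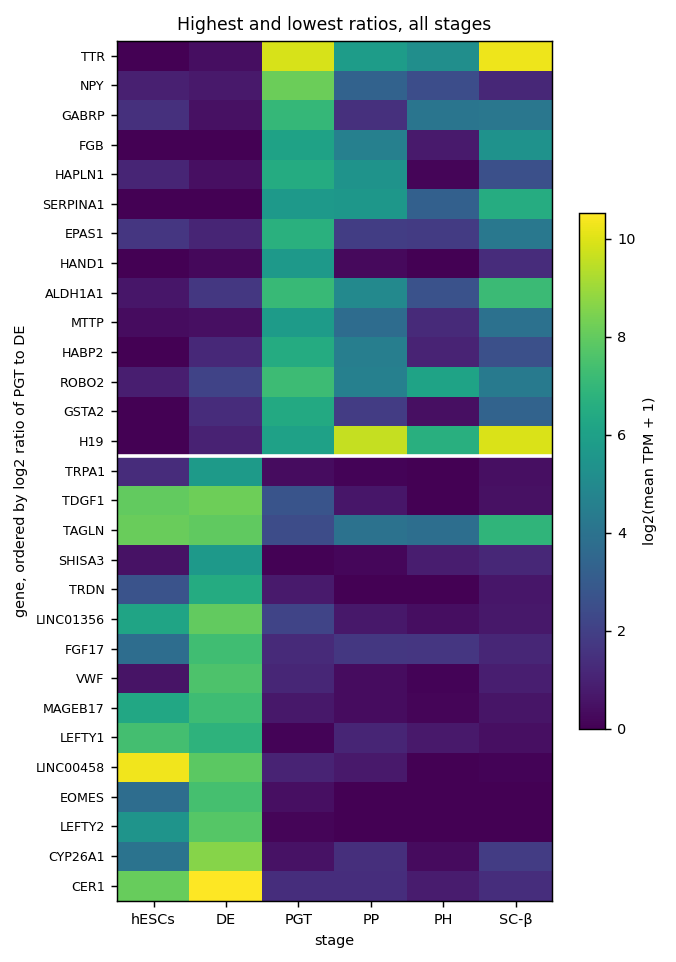
Levels, as log2(mean TPM + 1), of 14 of the 15 genes with the highest (above the white line) and the 15 with the lowest ratio of PGT to DE, in hESCs, DE, PGT, PP, the column named PH, a stage not defined in the sources used here, and SC-β organoids. Most genes of the upper part are bright in PGT and fainter at PP, with TTR bright again in SC-β organoids and H19 brighter at PP and in SC-β organoids than in PGT, and most genes of the lower part are bright in DE or in both hESCs and DE.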

How the data were processed

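Total RNA from 2 independent replicates of each stage was depleted of ribosomal RNA (RiboMinus) and sequenced with paired-end reads by the authors, who used HISAT2 (version 2.2.0) for alignment to hg38 and StringTie (version 2.1.6) for TPM. The labels also name a TruSeq Stranded mRNA kit. The annotation is not given in the sources used here. The authors deposited TPM per gene as 1 mean for each of 6 stages, so the depth per sample, the spread between replicates and any test are not available from these values. The table holds 50451 entries under 49085 names, and entries of the 231 repeated names were summed, which can join different loci with the same symbol.

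Log2 ratios of PGT to DE were computed with a pseudocount of 1 TPM over genes at 10 TPM or more in either stage, with Python (version 3.11.15), pandas (version 2.3.3) and numpy (version 2.4.6). Figures were drawn with matplotlib (version 3.10.9). Calculations were tested on simulated data. The 31 gene lists, which share some genes, were chosen with earlier results of these data known. Genes named were TTR, APOA1 and HNF4A, the DE markers and markers of other cells, the 15 highest and 15 lowest ratios without clone names, and in each list up to 8 genes with the largest ratios and examples under 2-fold. Some genes that this rule or the lists covered are not reported here and were left out of the lists and figures; they are still among the 10595 genes. Further list genes were named after their values were seen. Positions are from GENCODE version 44 on GRCh38, which matched 9619 of the 10595 names (90.8%), and promoters and microRNAs from RefSeq on GRCh38.p14. The alternatives were a pseudocount of 0.1 TPM, rescaling by the median ratio, totals without structural and mitochondrial RNAs or without the 100 most abundant genes, the highest entry of a repeated name, limits of 20 TPM or none, and 4-fold.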

Additional observations from a re-analysis of the deposited data

How the results depend on the processing

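Of 22 recomputed values over all genes, 13 kept within the limits set for a move. The 520 higher and 1003 lower genes became 323 and 649 with a limit of 20 TPM, 1129 and 2415 with no limit, 195 and 316 at 4-fold, and 963 higher genes in totals without the 100 most abundant genes. The median log2 ratio of -0.14 became -0.0186 after median-ratio rescaling and 0.00448 without the 100 most abundant genes, the latter above 0. These totals raise every remaining level, so more genes pass 10 TPM: higher genes of the gut tube factor list numbered 10 in place of 4, and of the WNT list 6 in place of 2. Of 310 list counts, 279 kept within 1.5 times. In those totals some lists with no higher or no lower gene gained 1 or 2, among them ZFP42 of the pluripotency list at a ratio of 1.00. Of 1081 ratios of named genes, 1047 kept their side of 2-fold, 26 fell under it, 8 passed it and none reversed. The pseudocount of 0.1 TPM gave 550 and 1083 genes. No paired analysis was possible because the deposited columns are means over the replicates, and for the same reason no replicate could be left out. Without depth or replicate values, differences near 2-fold cannot be set against an error.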

Other observations

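Gene families outside the lists, chosen after their values were seen, were summarised over the same 10595 genes. All 13 protein genes encoded in mitochondria reached 10 TPM, 11 of them were at least 2-fold lower in PGT, and their median log2 ratio was -1.16. MT-CO1, a subunit of cytochrome c oxidase, was at 4094 TPM in DE and 1885 in PGT, and MT-ND6, of complex I, at 100.4 and 34.3 TPM. Of the mitochondrial tRNA and rRNA genes, 14 of 19 were lower, with nearly the same median (-1.14). Mitochondrial RNA took 2.54% of the TPM total in DE and 1.22% in PGT. Of 46 genes whose names begin with NDUF, most of them nuclear subunits of complex I, the pseudogene NDUFB1P1 was the only one past 2-fold, and their median was -0.16. The 82 ribosomal protein genes were all under 2-fold with a median of 0.23.

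Of the IFITM genes, which encode membrane proteins that restrict viruses, all 3 at 10 TPM were lower: IFITM1 at 109 and 3.02 TPM, IFITM3 at 168 and 43.7 TPM and IFITM2 with a ratio of -1.46. Among 16 genes of the ADAM and ADAMTS proteases, 7 were higher (an antisense gene, ADAMTS19-AS1, is counted with them) and 2 lower, with ADAM28 at 15.3 and 48.8 TPM and ADAM19 at 46.6 and 9.47 TPM. Of 15 semaphorin genes, 5 were lower, led by SEMA5B (21.4 and 1.18 TPM), and SEMA3D was higher (5.35 and 31.9 TPM). Of 55 histone genes, 10 were lower and none was higher. Of 307 ZNF genes, 11 were higher and 14 lower. Among 162 genes annotated as long noncoding, 10 (6.17%) were higher and 25 (15.4%) lower, against 4.97% and 8.36% of 9030 protein-coding genes. LINC00261, an endoderm transcript next to FOXA2, was at 72.9 and 198 TPM (1.43).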
